A study of Mus musculus with 18 samples.

Results

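This account covers 10 genes that mark the fixed framework of the mouse spleen, its reticular (fibroblastic) cells and its smooth muscle, among the 55414 genes of the count table. They were chosen by symbol, with no measured value in the rule, but with earlier results of these data known. All 10 matched an Ensembl identifier in the table. They are the chemokines Ccl19, Ccl21a and Cxcl13, the surface glycoprotein Pdpn, the growth factor receptors Pdgfra and Pdgfrb, and the contractile and cytoskeletal genes Acta2, Myh11, Tagln and Des. Polyadenylated RNA was sequenced from wild-type C57BL/6J mice in 4 groups. In the first experiment, whole spleens came from mice exposed for 30 days to fine airborne particles (PM2.5, n = 4) or to filtered air (n = 4). In the second, macrophages isolated from the spleen came from mice exposed to PM2.5 (n = 5) or to air (n = 5), also labelled with 30 days. The sources used here mention filtered air after that exposure for the second experiment, give no duration for it, and give neither the age and sex of the mice nor the way the macrophages were isolated. All mice were wild type. The PM2.5 libraries carry the word CAP in their titles, which the labels do not expand. PM2.5 macrophage replicate 1 carries an air treatment tag against its own title and was kept in the PM2.5 group.

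The white pulp of the spleen is held up by fibroblastic reticular cells that secrete CCL19 and CCL21, which draw T cells and dendritic cells through the receptor CCR7, and by follicular stromal cells that secrete CXCL13, which draws B cells through CXCR5. Podoplanin, a surface glycoprotein of these stromal cells, binds CLEC-2 (Clec1b) on platelets and dendritic cells, and the platelet-derived growth factor receptors α and β mark fibroblasts and the mural cells of vessels. Smooth muscle α-actin (Acta2), smooth muscle myosin heavy chain (Myh11), transgelin (Tagln) and the intermediate filament desmin (Des) make up the contractile apparatus of vessel walls, and contractile cells also occupy the splenic capsule and trabeculae.

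Several contractile genes are textbook targets of serum response factor, which binds the CArG box, and the homeostatic chemokines are textbook targets of NF-κB downstream of the lymphotoxin receptor, so RefSeq promoter windows on GRCm38.p6 were searched for these motifs on both strands. Windows of up to 250 bases before the start were held for 7 of the 10 genes (Des, Ccl19, Ccl21a, Pdpn, Pdgfra, Cxcl13 and Acta2). Of the 250 bases of the Ccl19 window, 212 lie in annotated Ccl19 exon, so its search covered little sequence upstream of the annotated gene. No strict CArG box lay in any of the 7, against 1.47% of all 32851 windows. A search that allowed 1 G or C in the A/T core of the box, added after the strict search had found none, met the Acta2 window at 2 places, 84 to 75 and 34 to 25 bases before the RefSeq start, against a match in 8.59% of all windows. The gene coordinates of GENCODE M21 used below begin farther upstream, at position 34255590 on the minus strand, so 217 of the 250 bases of this window, both stretches included, lie in annotated Acta2 exon. Both stretches are shown 5′ to 3′ on the minus strand with the matched 10 bases in capitals, because Acta2 heads the contractile group described below.
Acta2, chr19:34255438-34255467: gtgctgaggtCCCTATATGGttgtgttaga
Acta2, chr19:34255388-34255417: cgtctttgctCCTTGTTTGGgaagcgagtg
The Des window held 1 κB site, 196 to 187 bases before the start (7.25% of all windows held one), and no CArG match of either kind. The Cxcl13 window held the letters TATAAA 46 to 41 bases before the start (12.4% of all windows), while the Ccl21a window held none of the motifs searched. These windows are shown for the contractile gene with the smallest fold change in spleen and for the 2 most abundant chemokines, with the matched bases in capitals. A match is a description of letters, not of binding.
Des, chr1:75360042-75360291, plus strand: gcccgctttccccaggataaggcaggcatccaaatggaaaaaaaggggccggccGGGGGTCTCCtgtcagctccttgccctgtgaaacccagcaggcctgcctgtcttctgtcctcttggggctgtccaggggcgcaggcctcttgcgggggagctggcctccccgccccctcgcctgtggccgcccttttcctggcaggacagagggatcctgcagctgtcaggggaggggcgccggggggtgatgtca
Cxcl13, chr5:95956689-95956938, plus strand: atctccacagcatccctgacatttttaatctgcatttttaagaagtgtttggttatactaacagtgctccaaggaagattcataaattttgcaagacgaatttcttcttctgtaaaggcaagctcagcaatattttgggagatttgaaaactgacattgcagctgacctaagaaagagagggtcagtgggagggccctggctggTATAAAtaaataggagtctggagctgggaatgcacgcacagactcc
Ccl21a, chr4:42773994-42774241, minus strand: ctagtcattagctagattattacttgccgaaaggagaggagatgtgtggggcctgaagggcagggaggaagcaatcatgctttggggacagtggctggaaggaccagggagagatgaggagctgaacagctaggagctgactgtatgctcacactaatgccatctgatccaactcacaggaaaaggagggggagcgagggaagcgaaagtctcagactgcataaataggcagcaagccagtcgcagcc

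Libraries held between 18427891 and 19906706 counts in PM2.5 spleens, 16493694 and 20352346 in air spleens, 18848048 and 33844807 in PM2.5 macrophages, and 18107264 and 29013034 in air macrophages. Levels below are CPM (reads of a gene scaled to library size), and CPM per kilobase of exon where genes are set against each other. The macrophage label was checked against 8 macrophage markers, and all 8 were called higher by edgeR in air macrophages than in air spleens. Before the results, some spleen libraries have to be named. PM2.5 spleen replicate 4 had the highest summed CPM of all 8 spleens for mesothelial markers, collagens, endothelial markers and fat cell markers, and it was the PM2.5 library with the highest value for 7 of the 10 members and the lowest value for the other 3. Values of members and lists in spleen are therefore also given without it where they moved by more than 1.5 times. Air replicates 3 and 4 had 30.5 and 55.3 CPM of the liver gene Alb, against at most 5.97 CPM in the other spleens. Their pancreas and liver markers summed to 40.9 and 79.2 CPM, against at most 20.6 CPM elsewhere in spleen. These air libraries also had the lowest Acta2 and Myh11 values of all 8 spleens. The part of liver and pancreas transcripts in the values was not tested.

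Per kilobase of exon the 10 genes kept a single order in both groups of spleens. Ccl21a (chromosome 4, 42772860 to 42773993, GRCm38) was the most abundant, at 724 ± 214 CPM per kilobase in PM2.5 spleens and 932 ± 92.4 in air spleens (SD, n = 4 each). Cxcl13 (chromosome 5, 95956951 to 95961068) followed at 203 ± 23.7 and Ccl19 (chromosome 4, 42754525 to 42756577) at 114.6 ± 23.9 in PM2.5 spleens, against 223 ± 48.2 and 183 ± 37.0 in air spleens, where the spreads of the pair overlapped. Ccl19 and Ccl21a are neighbours, 16283 bases apart. Acta2 averaged 57.9 ± 40.9 in PM2.5 spleens and 37.2 ± 18.9 in air spleens, Tagln 27.8 ± 18.4 and 20.4 ± 13.01, and Des 20.1 ± 6.42 and 17.6 ± 1.73. These 3 neighbours in the order did not differ beyond their spreads. Myh11, at 9.96 ± 6.60 in PM2.5 spleens and 5.42 ± 2.42 in air spleens, stood below them. The growth factor receptors came next, with Pdgfrb at 5.53 ± 2.43 and 3.55 ± 0.505 and Pdgfra at 3.61 ± 0.686 and 2.49 ± 0.210 in PM2.5 and air spleens. Pdpn closed the order at 3.14 ± 1.09 in PM2.5 spleens and 1.66 ± 0.958 in air spleens.

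The first comparison asks what 30 days of PM2.5 did to these genes in the whole spleen. The 3 chemokines averaged lower in PM2.5 spleens and the other 7 genes averaged higher (51.8% of all genes tested were on the higher side), but none of the 10 passed edgeR's quasi-likelihood test at an adjusted p of 0.05. Across the 16551 genes tested the call rate was 0.0121%. At an unadjusted p under 0.05, Pdgfra and Pdgfrb were higher and Ccl19 was lower, against a background of 8.93% of genes higher and 7.76% lower. DESeq2 called 2 members, Ccl19 and Pdgfra, against 5.01% of all genes, and limma-voom called 0. The median log2 fold change of the members was 0.49, against 0.017 over all genes tested, and without PM2.5 replicate 4 the members' median was 0.00086, with 5 genes higher and 5 lower. Without that library 6.09% of all genes were higher and 5.37% lower at an unadjusted p under 0.05. Counts given below without it are to be read against these shares. With air replicates 3 and 4 left out together the members' median was 0.21, with 7 genes higher and 3 lower. In that fit 4.49% of all genes were higher and 2.61% lower at an unadjusted p under 0.05.

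**Figure D1:**
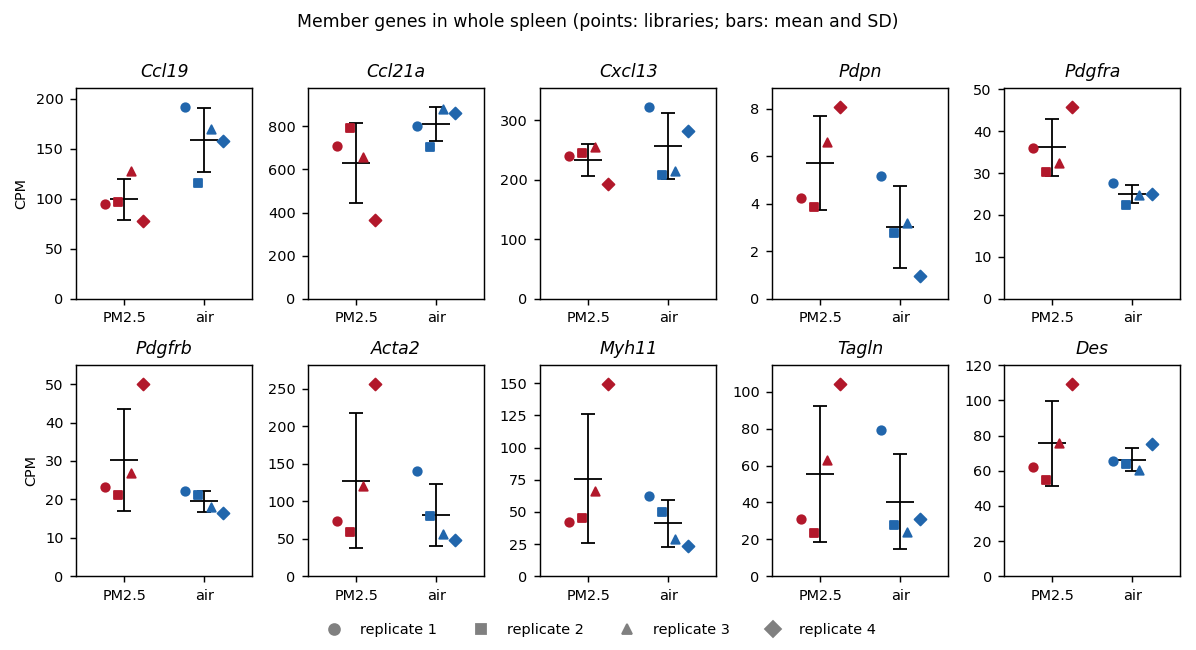
CPM of each of the 10 genes in whole spleens, 1 point per library with the replicate number given by its shape, PM2.5 left of air, and bars for the mean and SD (n = 4 each). PM2.5 replicate 4 (diamond) is the lowest PM2.5 point for Ccl19, Ccl21a and Cxcl13 and the highest for the other 7 genes, and Pdgfra is the only panel in which the groups do not overlap.

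Ccl19, the chemokine with the smallest p among the members, had 95.01, 96.5, 127.8 and 78.1 CPM in the 4 PM2.5 spleens, against 192, 115.6, 169.6 and 158 CPM in the 4 air spleens. Air replicate 2 lay below PM2.5 replicate 3, and otherwise every PM2.5 library was under every air library. The log2 fold change was -0.68 (SE 0.182, edgeR adjusted p = 0.135), and it stayed between -0.82 and -0.57 when each library was left out in turn. Ccl21a had 707, 793, 657 and 363 CPM in PM2.5 spleens, against 799.6, 702, 882 and 860.3 CPM in air spleens. PM2.5 replicate 4 alone lay far below the others, at less than the lowest of the remaining 7 libraries, and the log2 fold change of -0.36 (SE 0.211, adjusted p = 0.417) was -0.17 without it. Cxcl13 had 239.7, 244.6, 255 and 193.5 CPM in PM2.5 spleens and 323, 207, 214 and 282 CPM in air spleens. The PM2.5 values lay mostly inside the air range, and the log2 fold change of -0.14 (SE 0.161, adjusted p = 0.707) was -0.058 with PM2.5 replicate 4 left out and -0.0094 with air replicate 1 left out. The sources used here do not say how reads shared with near-identical copies were counted. The copies Ccl21b, Ccl19-ps1 and Ccl19-ps3 were at 0 counts in all 18 libraries. Of other genes listed as near-identical copies, Gm12407 held 2063 counts over the 18 libraries and Gm13306 held 20. Several more, among them Ccl21c and Ccl21d, were not found by symbol. The part of shared reads in the chemokine values was not tested.

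The receptors of these chemokines are carried by the lymphocytes and dendritic cells they attract. Ccr7 had 136.9 CPM in PM2.5 spleens and 148 CPM in air spleens (log2 fold change -0.12, edgeR adjusted p = 0.672). Cxcr5 had 210.6 CPM in PM2.5 spleens and 238 CPM in air spleens (-0.18, adjusted p = 0.425). Clec1b, the podoplanin receptor, had 18.2 and 19.2 CPM, and Ackr4, a scavenging receptor for CCL19 and CCL21, had 1.95 and 0.802 CPM in PM2.5 and air spleens. None of these 4 receptors passed at an unadjusted p under 0.05. The 12 genes of lymphotoxin and non-canonical NF-κB signalling, which sustain chemokine production by stromal cells, were split with 6 higher and 6 lower around a median change of -0.021, and 1 passed at an unadjusted p under 0.05. Of 13 genes of follicular dendritic and marginal reticular cells, the kind that makes CXCL13, 9 were lower and 4 higher (median change -0.15, and -0.075 without PM2.5 replicate 4). The markers of the lymphocytes themselves were also lower, 6 of 6 for B cells and 6 of 7 for T cells, of which 2 and 4 passed at an unadjusted p under 0.05. Without PM2.5 replicate 4 these counts were 2 and 1. In bulk samples fewer cells of a type and less RNA per cell cannot be told apart, and the part of the lymphocyte markers in the chemokine values was not tested.

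Pdgfra (chromosome 5, 75152292 to 75198215), the receptor that marks fibroblasts, was the only member whose groups did not overlap. It had 36.0, 30.3, 32.5 and 45.8 CPM in PM2.5 spleens, against 27.6, 22.4, 24.7 and 25.1 CPM in air spleens. All 4 PM2.5 libraries lay above all 4 air libraries, a pattern that 4.41% of the genes tested showed in this direction. The log2 fold change was 0.54 (SE 0.159, edgeR adjusted p = 0.147), and 0.40 without PM2.5 replicate 4. Pdgfrb (chromosome 18, 61045150 to 61085061), the receptor of pericytes and other mural cells, had 23.1, 21.2, 26.9 and 49.9 CPM in PM2.5 spleens, against 22.3, 21.2, 17.98 and 16.3 CPM in air spleens. The PM2.5 group owed its higher mean mostly to replicate 4, without which the log2 fold change of 0.64 (SE 0.262, adjusted p = 0.26) was 0.29. Pdpn (chromosome 4, 143267431 to 143299564) was scarce, with 4.25, 3.88, 6.59 and 8.08 CPM in PM2.5 spleens and 5.18, 2.78, 3.17 and 0.936 CPM in air spleens. Its groups overlapped through air replicate 1, and its log2 fold change was 0.92 (SE 0.456, adjusted p = 0.343).

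The ligands of the PDGF receptors were scarce in whole spleen. Pdgfb had 15.2 CPM in PM2.5 spleens and 9.25 CPM in air spleens (log2 fold change 0.71, edgeR adjusted p = 0.259). Pdgfc had 2.79 and 0.990 CPM (1.48, adjusted p = 0.206) and Pdgfd 3.69 and 1.07 CPM (1.78, adjusted p = 0.201) in PM2.5 and air spleens, while Pdgfa had 10.9 and 11.0 CPM. Of the 4 ligands, 3 were higher at an unadjusted p under 0.05, and 0 of the 4 were without PM2.5 replicate 4. Of 20 other genes of fibroblastic reticular cells and splenic fibroblasts, 13 were higher and 7 lower (median change 0.41 on the log2 scale), with 5 higher and 1 lower at an unadjusted p under 0.05. Without PM2.5 replicate 4 the split was again 13 to 7, with a median of 0.23. Tcf21, a transcription factor of splenic mesenchyme, had 20.2 ± 10.5 CPM in PM2.5 spleens and 2.69 ± 2.06 CPM in air spleens (SD, n = 4 each), a log2 fold change of 2.91 with an adjusted p of 0.0941. Further regulators needed for spleen development, Tlx1 at 13.6 and 5.64 CPM and Nkx2-3 at 13.7 and 7.88 CPM in PM2.5 and air spleens, had log2 fold changes of 1.27 (adjusted p = 0.133) and 0.80 (adjusted p = 0.127). Of 10 pericyte genes 9 were tested, of which 7 were higher and 2 lower (median change 0.33), and without PM2.5 replicate 4 6 were higher and 3 lower (0.14). Rgs5, a regulator of G protein signalling typical of pericytes, averaged 16.7 CPM in PM2.5 spleens and 25.1 CPM in air spleens (-0.59, adjusted p = 0.177), opposite in sign to Pdgfrb.

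Acta2, Myh11 and Tagln had the widest spread of the 10 genes among PM2.5 spleens, relative to their means. Acta2 (chromosome 19, 34241090 to 34255590), of which 2 stretches are printed above, had 73.5, 58.7, 120.8 and 256 CPM in PM2.5 spleens, against 140.7, 80.9, 56.6 and 48.9 CPM in air spleens. PM2.5 replicate 4 was the highest of the 8 and air replicate 1 the next, so the groups overlapped, and the log2 fold change of 0.64 (SE 0.452, edgeR adjusted p = 0.515) was 0.045 with PM2.5 replicate 4 left out and 1.03 with air replicate 1 left out. Myh11 (chromosome 16, 14194535 to 14291372) had 41.9, 45.4, 66.2 and 149 CPM in PM2.5 spleens and 62.5, 50.2, 28.8 and 23.3 CPM in air spleens. PM2.5 replicates 3 and 4 lay above all air libraries and replicates 1 and 2 inside the air range, and the log2 fold change of 0.88 (SE 0.422, adjusted p = 0.325) was 0.31 without PM2.5 replicate 4. Tagln (chromosome 9, 45929619 to 45936058) had 31.2, 23.4, 62.8 and 104 CPM in PM2.5 spleens, against 79.1, 28.0, 24.1 and 30.8 CPM in air spleens. Its log2 fold change of 0.45 (SE 0.483, adjusted p = 0.675) turned to -0.048 with PM2.5 replicate 4 left out and was 0.9996 with air replicate 1 left out. Des (chromosome 1, 75360329 to 75368579) had 62.0, 54.8, 76.0 and 109 CPM in PM2.5 spleens and 65.3, 64.0, 60.2 and 75.4 CPM in air spleens. It was the steadiest of the class in air spleens, and its log2 fold change of 0.19 (SE 0.196, adjusted p = 0.666) turned to -0.043 without PM2.5 replicate 4.

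Tagln shares 108 exonic bases with Pcsk7 and 1241 with the antisense gene Gm48529, both on the opposite strand, and no source used here gives the strand setting of the counting, so reads from the overlaps cannot be told apart. Gm48529 had 5.86 CPM in PM2.5 spleens and 5.92 CPM in air spleens, and Pcsk7 had 47.9 and 54.5 CPM.

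Of 20 other smooth muscle contractile genes 19 were tested in spleen, of which 18 were higher and 1 lower in PM2.5. Their median change was 0.99 on the log2 scale beside 0.017 over all genes. None passed the adjusted threshold in edgeR, and 13 were higher at an unadjusted p under 0.05. Without PM2.5 replicate 4 the count was 17 higher and 2 lower, and the median was 0.86. Of these, 8 were higher at an unadjusted p under 0.05, against 6.09% of all genes without that library. With air replicates 3 and 4 left out together, 19 of 20 were higher and the median was 0.93. In that fit 6 were higher at an unadjusted p under 0.05, against 4.49% of all genes. Itga8, an integrin subunit of smooth muscle and mesenchyme, had 23.9 ± 24.1 CPM in PM2.5 spleens and 3.72 ± 1.505 CPM in air spleens (SD, n = 4 each, log2 fold change 2.68, adjusted p = 0.124). Lmod1, which nucleates actin filaments in smooth muscle, had 8.07 and 1.23 CPM (2.70, adjusted p = 0.136), and Smtn, smoothelin, had 20.7 and 5.79 CPM (1.83, adjusted p = 0.127) in PM2.5 and air spleens. Srf itself had 67.6 CPM in PM2.5 spleens and 56.3 CPM in air spleens (0.26, adjusted p = 0.695), and its cofactor Myocd had 0.330 and 0.196 CPM and was not tested.

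Markers of other cell types also differed in level between the groups of spleens. The summed level of 9 mesothelial markers, genes of the serosal cells that cover the spleen surface, was 63.8, 48.1, 138 and 265 CPM in the PM2.5 spleens, against 6.17, 6.37, 5.76 and 4.62 CPM in the air spleens, with no overlap and no marker at 0 in every library of either group. Of the 8 that were tested all 8 were higher at an unadjusted p under 0.05 and none passed the adjusted threshold. Upk3b, a uroplakin of mesothelium, had 31.7 ± 31.4 CPM in PM2.5 spleens and 0.465 ± 0.409 CPM in air spleens (SD, n = 4 each). Msln had 29, 20, 42 and 2 counts in the air spleens. Both genes passed the filter on low counts through their PM2.5 libraries. Air replicates 3 and 4 each held 3 of the 9 markers at 0. A marker that passes the filter only through PM2.5 libraries can hardly be lower in PM2.5, so the count of 8 higher was partly set by the filter. The summed level of 12 collagen genes was 336, 386, 453 and 1044 CPM in PM2.5 spleens and 360.5, 309, 238 and 249.5 CPM in air spleens. The 12 endothelial markers summed to 461, 493, 531 and 656 CPM in PM2.5 spleens, against 388, 396, 355 and 402 CPM in air spleens, also without overlap. The fat cell markers summed to between 2.85 and 645 CPM in PM2.5 spleens and between 3.81 and 275 CPM in air spleens. The mesothelial sum of every PM2.5 spleen was above that of every air spleen. In PM2.5 replicates 1 and 2, Acta2, Tagln and Des were below their air means. Myh11, at 41.9 and 45.4 CPM in these libraries, was above its air mean of 41.2 CPM. PM2.5 replicate 4 had the highest Acta2 value of the 8 and a mesothelial sum of 265 CPM. Air replicate 1 had the second-highest Acta2 value and a mesothelial sum of 6.17 CPM. Without PM2.5 replicate 4 the median log2 fold change was 0.77 for collagens, against 1.32 with it, and -0.012 for fat cell markers, against 1.47 with it. Of the 12 collagens 10 were higher at an unadjusted p under 0.05, against 8.93% of all genes. With air replicates 3 and 4 left out together 3 were, against 4.49% of all genes, and the collagen median was 1.03. All 8 macrophage markers were higher in PM2.5 spleens, 5 of them at an unadjusted p under 0.05 (3 without PM2.5 replicate 4), and they summed to 656, 658, 751 and 831 CPM in PM2.5 spleens, against 664, 480.1, 425 and 459 CPM in air spleens. All 8 erythroid markers were higher at an unadjusted p under 0.05, with a median of 3.93 on the log2 scale, and they summed to 125, 2137, 307 and 699.9 CPM in PM2.5 spleens, against 217, 79.0, 106.5 and 116 CPM in air spleens. With PM2.5 replicates 2 and 4 left out together, 2 of the 8 were higher at an unadjusted p under 0.05, against 4.38% of all genes, and the median was 1.52. The part of mesothelial, endothelial, fat cell, macrophage and erythroid transcripts in the values of the 10 genes was not tested.

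**Figure D2:**
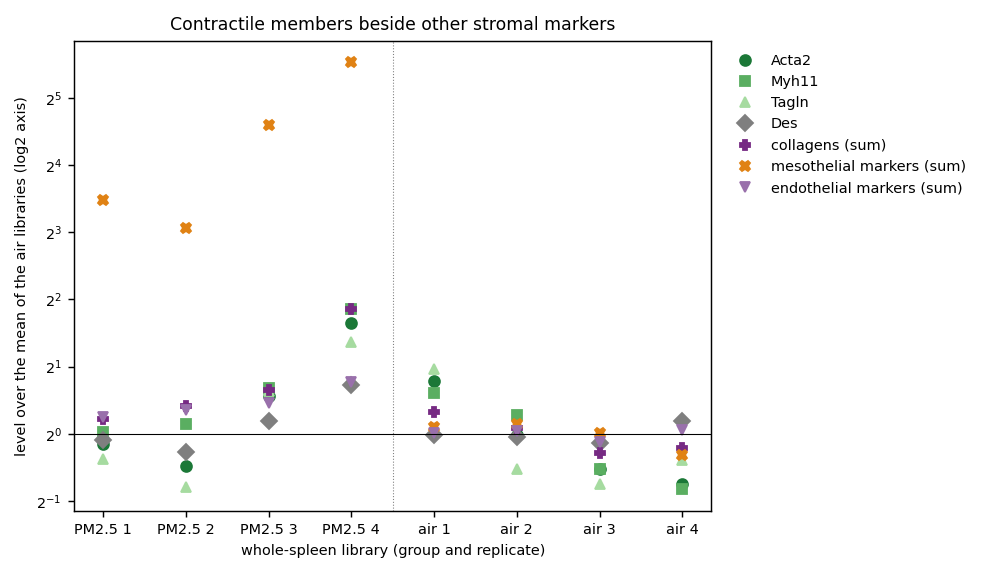
Level of the 4 contractile members and summed level of 3 marker lists in each whole-spleen library, relative to the mean of the 4 air libraries on a log2 axis. PM2.5 replicate 4 is highest for each of the 7 quantities plotted. In PM2.5 replicates 1 and 2 the mesothelial sum is above every air library, Acta2, Tagln and Des are below the air mean, and Myh11 is above it.

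The second comparison asks the same of macrophages isolated from the spleen. Here 9 of the 10 genes had enough counts to be tested, Pdpn being at 0 counts in all 10 libraries. None of the 9 passed edgeR's adjusted threshold, as did none of the 15696 genes tested (0%). DESeq2 called 1 of the 9, Myh11, against 1.11% of all genes, and limma-voom called 0. Cxcl13 and Myh11 were higher in PM2.5 macrophages at an unadjusted p under 0.05, against a background of 6.24% of genes in that direction, and the same 2 genes had groups that did not overlap, against 1.41%. Of the 9 members 7 averaged higher, where 51.4% of all genes did, and their median log2 fold change was 0.37, beside 0.0062 over all genes.

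**Figure D3:**
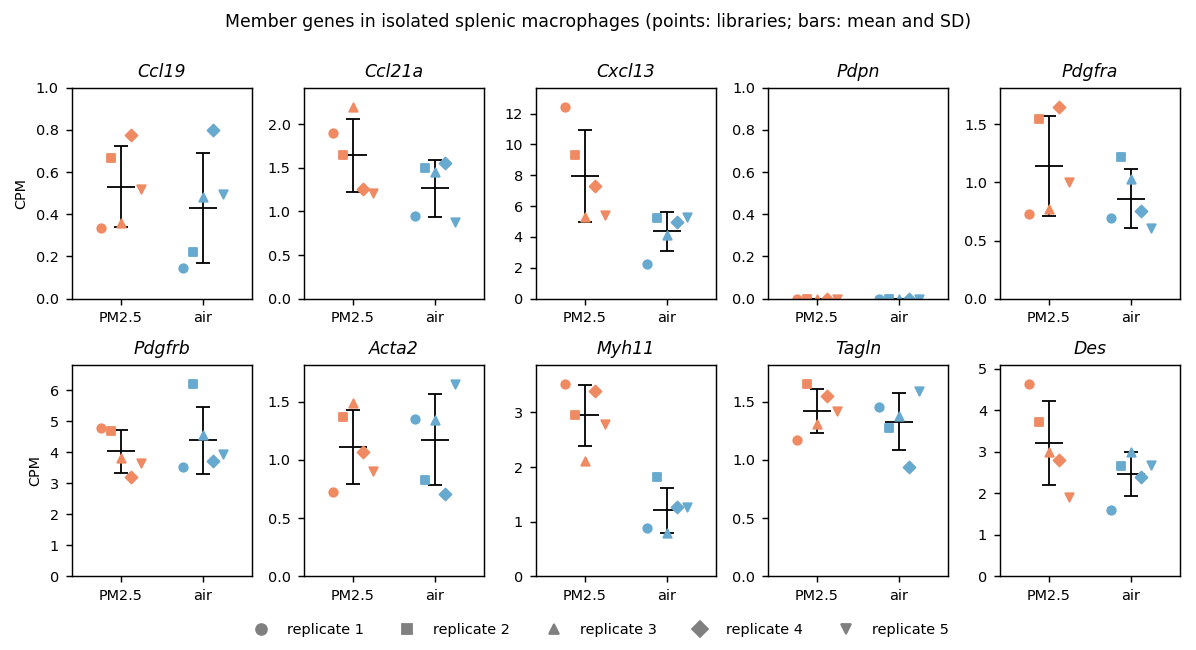
CPM of each of the 10 genes in isolated macrophages, 1 point per library, PM2.5 left of air, and bars for the mean and SD (n = 5 each). The groups separate for Myh11, with all PM2.5 points at 2.11 CPM or more and all air points at 1.83 CPM or less, and only just for Cxcl13, whose lowest PM2.5 point and highest air point are 5.29 and 5.28 CPM.

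Myh11 had 3.51, 2.95, 2.11, 3.40 and 2.78 CPM in the 5 PM2.5 macrophage libraries, against 0.874, 1.83, 0.792, 1.27 and 1.27 CPM in the 5 air libraries. These levels rest on between 63 and 84 counts per library in PM2.5 and between 23 and 33 counts in air. All PM2.5 libraries lay above all air libraries, with a log2 fold change of 1.31 (SE 0.240, edgeR adjusted p = 0.258, DESeq2 adjusted p = 0.000569). The gene ranked 6th by p of all genes tested. Leaving out each library in turn gave between 1.17 and 1.49, and counting PM2.5 replicate 1 as air, as its tag says, gave 0.83 (adjusted p = 0.591). Nde1, which lies 1607 bases from Myh11 on the opposite strand, had 55.6 ± 3.32 CPM in PM2.5 macrophages and 53.8 ± 4.03 CPM in air macrophages (SD, n = 5 each, 0.048, adjusted p = 0.824).

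The other 3 contractile members gave no such separation. Acta2 lay between 0.725 and 1.49 CPM in PM2.5 macrophages and between 0.707 and 1.65 CPM in air macrophages (log2 fold change -0.068, SE 0.277, edgeR adjusted p = 0.944). Tagln lay between 1.17 and 1.65 CPM in PM2.5 macrophages and between 0.942 and 1.595 CPM in air macrophages (0.099, SE 0.186, adjusted p = 0.867). Des had 4.63, 3.72, 3.002, 2.82 and 1.91 CPM in PM2.5 macrophages and 1.603, 2.66, 2.995, 2.40 and 2.70 CPM in air macrophages (0.37, SE 0.241, adjusted p = 0.601), with overlapping groups. Of the other contractile genes 15 were tested, 6 higher and 9 lower, with a median of -0.0038, and Cald1, caldesmon, was the 1 that passed at an unadjusted p under 0.05, with 3.84 ± 0.598 CPM in PM2.5 macrophages and 2.73 ± 0.524 CPM in air macrophages (SD, n = 5 each, 0.50, adjusted p = 0.358). Its groups did not overlap either, the lowest PM2.5 library being at 3.23 CPM and the highest air library at 3.20 CPM. Cnn1 and Lmod1, contractile genes found mostly in smooth muscle, were at 0.0658 and 0.0130 CPM in PM2.5 macrophages and 0.141 and 0.0146 CPM in air macrophages. The summed mesothelial markers were at most 1.73 CPM in PM2.5 and 1.51 CPM in air macrophages.

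Cxcl13 had 12.4, 9.34, 5.29, 7.28 and 5.45 CPM in PM2.5 macrophages, against 2.22, 5.20, 4.10, 4.99 and 5.28 CPM in air macrophages. PM2.5 replicates 1 and 2 were well above the air range and replicates 3 and 5 just above it. The log2 fold change was 0.87 (SE 0.283, edgeR adjusted p = 0.333), lay between 0.65 and 0.99 when each library was left out in turn, and was 0.26 with PM2.5 replicate 1 counted as air. Genes of follicular dendritic and marginal reticular cells went both ways. The 12 tested split into 7 higher and 5 lower (median change 0.28). At an unadjusted p under 0.05, 6 were higher, against 6.24% of all genes, and 1 was lower. Mfge8, a bridging protein of follicular dendritic cells that binds dying cells, had 72.1 ± 29.4 CPM in PM2.5 macrophages and 26.3 ± 8.12 CPM in air macrophages (SD, n = 5 each, 1.46, adjusted p = 0.258). Clu, clusterin, had 39.6 ± 18.6 and 17.8 ± 4.21 CPM (1.16, adjusted p = 0.258), and Madcam1, an adhesion molecule of marginal reticular and sinus-lining cells, 2.10 ± 1.39 and 0.639 ± 0.503 CPM (1.71, adjusted p = 0.335) in PM2.5 and air macrophages. Among the lower genes of the list, Fcer2a had 97.3 ± 15.8 and 104 ± 16.6 CPM (-0.10, edgeR adjusted p = 0.804) in PM2.5 and air macrophages. The summed level of all 13 genes of the list, which includes Vcam1, abundant in red pulp macrophages, and Cr2, also expressed by B cells, lay between 5595 and 6767 CPM in PM2.5 macrophages and between 5521 and 7201 CPM in air macrophages. Markers of other cells differed in direction between lists. Of the 8 macrophage markers 0 were higher and 8 lower in PM2.5 macrophages (median change -0.16, beside 0.0062 over all genes). Of 10 endothelial markers 0 were higher and 10 lower (median change -0.32). B cell markers were higher for 6 of 6, T cell markers for 6 of 7 and erythroid markers for 8 of 8. Of these 0, 3 and 0 passed at an unadjusted p under 0.05, against 6.24% of all genes higher. With PM2.5 replicate 1 left out, 7.31% of all genes were lower and 6.3% higher at that threshold. In that fit 3 of 8 macrophage and 4 of 10 endothelial markers were lower, and 2 of 7 T cell markers were higher. Of 13 follicular dendritic and marginal reticular cell genes, 6 were higher and 1 lower. The part of stromal and other cells carried along in the preparation in the Cxcl13 and Myh11 values was not tested.

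Ccl19, Ccl21a and Pdgfra were scarce in macrophages. Ccl19 lay between 0.335 and 0.777 CPM in PM2.5 macrophages and between 0.146 and 0.801 CPM in air macrophages (log2 fold change 0.31, SE 0.424, edgeR adjusted p = 0.811). Ccl21a lay between 1.22 and 2.20 CPM in PM2.5 macrophages and between 0.880 and 1.55 CPM in air macrophages (0.38, SE 0.239, adjusted p = 0.587). Pdgfra lay between 0.725 and 1.65 CPM in PM2.5 macrophages and between 0.605 and 1.22 CPM in air macrophages (0.40, SE 0.296, adjusted p = 0.643). Groups of all 3 genes overlapped. Pdgfrb had 4.80, 4.70, 3.80, 3.20 and 3.65 CPM in PM2.5 macrophages and 3.53, 6.20, 4.54, 3.72 and 3.96 CPM in air macrophages (-0.12, SE 0.182, adjusted p = 0.829), with 1 air library above all others. Its neighbour Csf1r, the growth factor receptor of macrophages 15537 bases away, had 3506 ± 435 CPM in PM2.5 macrophages and 4415 ± 665 CPM in air macrophages (SD, n = 5 each, -0.33, adjusted p = 0.392).

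The effects in both preparations were then set against each other in 1 fit of the 18 libraries, as the macrophage effect minus the spleen effect. None of the 9 members with a value passed the adjusted threshold in edgeR, against 1.46% of 17779 genes, and 0 members were called by DESeq2 or limma-voom. At an unadjusted p under 0.05 there were 4 of them, against 20.6% of all genes. The differences were positive for the chemokines, at 1.002 for Cxcl13 (SE 0.342, edgeR adjusted p = 0.114, and 0.42 with PM2.5 macrophage replicate 1 counted as air), 0.99 for Ccl19 (SE 0.435, adjusted p = 0.209) and 0.75 for Ccl21a (SE 0.312, adjusted p = 0.187). The Ccl19 value rests on between 4 and 19 counts per macrophage library. For Pdgfrb the difference was negative, -0.77 (SE 0.333, adjusted p = 0.2), and it was -0.41 without PM2.5 spleen replicate 4. For Myh11 it was 0.42 (adjusted p = 0.694), and 0.99 without PM2.5 spleen replicate 4, 0.15 without air spleen replicate 1 and -0.027 with PM2.5 macrophage replicate 1 counted as air. For Acta2 it was -0.71 (adjusted p = 0.542), and -0.11 and -1.11 without those spleen libraries. For Tagln it was -0.36 (adjusted p = 0.765), turning to 0.14 without PM2.5 spleen replicate 4 and reaching -0.92 without air spleen replicate 1. Des at 0.17 (adjusted p = 0.805) and Pdgfra at -0.14 (adjusted p = 0.85) lay nearest to 0, and were 0.41 and -0.00037 without PM2.5 spleen replicate 4. Among the stromal genes named above, Tcf21 at -3.25 (adjusted p = 0.0183), Rgs5 at 3.001 (SE 0.661, adjusted p = 0.0382) and Mfge8 at 1.62 (adjusted p = 0.0325) passed. Of all genes, edgeR called 259 in this contrast and limma-voom 3. Tcf21 was scarce in macrophages, with 1.29 CPM in PM2.5 and 1.63 CPM in air macrophages. The Rgs5 value rests on very few macrophage reads, with 0.269 CPM in PM2.5 and 0.0499 CPM in air macrophages. Rgs5 did not pass the filter on low counts in the fit of macrophages alone.

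**Figure D4:**
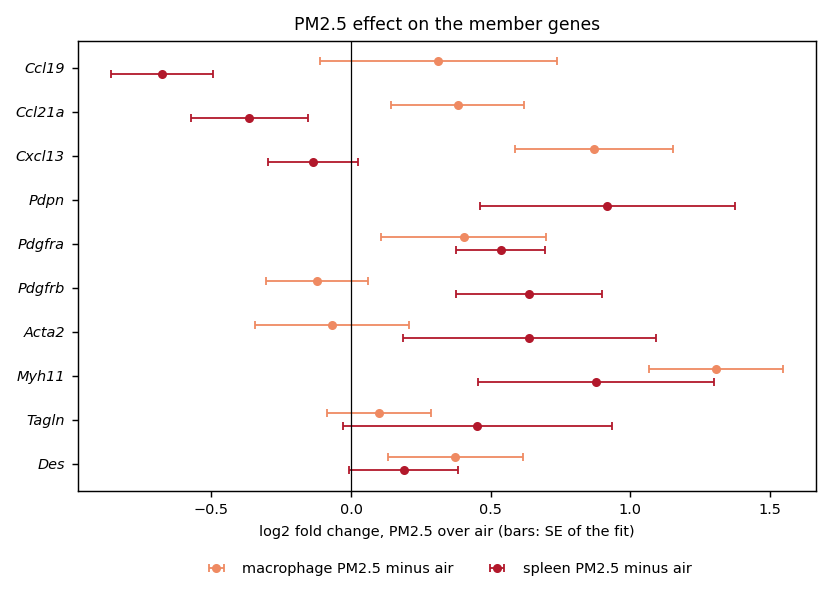
Log2 fold change of PM2.5 over air for each gene, macrophages above spleen, with bars for the SE of the fit. The 3 chemokines lie below 0 in spleen and above 0 in macrophages, Myh11 lies above 0 in both at 1.31 and 0.88, and Pdpn has a value in spleen only.

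The last comparison sets isolated macrophages against whole spleen among air-exposed mice, which checks how much of the framework the macrophage preparation retained. All 10 members were called lower in macrophages by edgeR, with no overlap of groups, against 33.3% of genes called lower and 26.3% lower without overlap. Levels in this comparison were scaled over all 18 libraries. The preparations came from different experiments, and preparation and experiment cannot be told apart.

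The T-zone chemokines gave the largest differences of the 9 genes with a fitted value. Ccl21a had 1.38 ± 0.352 CPM in air macrophages (SD, n = 5) and 725 ± 68.3 CPM in air spleens (SD, n = 4), a log2 fold change of -9.03 with an adjusted p of 1.64e-14, the smallest of all genes tested. Ccl19 had 0.469 ± 0.283 CPM in macrophages and 142 ± 29.3 CPM in spleens (-8.24, adjusted p = 1.52e-13). Cxcl13 had 4.76 ± 1.40 CPM in macrophages and 229.6 ± 50.3 CPM in spleens, a smaller difference of -5.60 (adjusted p = 3.48e-12). Pdpn was at 0 counts in macrophages and 2.71 ± 1.59 CPM in spleens, at least 14.97-fold lower when a floor of 3 counts per library is taken, which covers counting error only.

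The 4 contractile genes were lower by amounts between -4.46 and -5.82 on the log2 scale. Acta2 had 1.29 ± 0.432 CPM in air macrophages and 73.5 ± 38.1 CPM in air spleens (log2 fold change -5.82, adjusted p = 1.95e-09). Myh11 had 1.32 ± 0.447 and 37.0 ± 16.9 CPM (-4.84, adjusted p = 6.03e-09), Tagln 1.45 ± 0.270 and 36.4 ± 23.6 CPM (-4.64, adjusted p = 2.32e-08), and Des 2.70 ± 0.577 and 59.2 ± 5.28 CPM (-4.46, adjusted p = 1.43e-11) in macrophages and spleens. Pdgfra, at 0.940 ± 0.279 CPM in macrophages and 22.3 ± 1.99 CPM in spleens, gave -4.56 (adjusted p = 1.16e-11). Pdgfrb gave the smallest difference of the 9, with 4.80 ± 1.17 CPM in macrophages and 17.4 ± 2.67 CPM in spleens, -1.86 on the log2 scale (adjusted p = 1.39e-06), or 3.64-fold lower.

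Lists of genes of the same cells were mostly lower in macrophages. Of 20 fibroblastic reticular and fibroblast genes 17 were called lower and 1 higher, Ltbr, the lymphotoxin β receptor, which had 67.2 CPM in macrophages and 9.04 CPM in spleens. Of 9 tested pericyte genes 7 were called lower, among them Rgs5 at 0.0545 and 22.5 CPM in macrophages and spleens (-8.70, edgeR adjusted p = 5.3e-12), and 1 was called higher, the peptidase Anpep, at 75.4 and 18.3 CPM (2.05, adjusted p = 3.94e-07). Of 13 follicular dendritic and marginal reticular cell genes 10 were called lower and 3 higher, Prnp, Vcam1 and Icam1. Of 19 tested contractile genes 12 were called lower and 5 higher, the higher ones including Flna and Vcl, cytoskeletal genes that macrophages also express, at 1655 and 19.6 CPM in macrophages against 584 and 5.34 CPM in spleens. Of the 4 PDGF ligands 2 were called higher, Pdgfb at 59.2 CPM in macrophages and 8.30 CPM in spleens (2.83, adjusted p = 4e-09) and Pdgfc at 21.3 and 0.889 CPM (4.56, adjusted p = 3.49e-09). Pdgfd was called lower, at 0.232 CPM in macrophages and 0.959 CPM in spleens (-2.09, adjusted p = 0.00536), and Pdgfa had 7.90 and 9.88 CPM (-0.32, adjusted p = 0.112). Clec1b, the podoplanin receptor, was called higher, at 80.5 CPM in macrophages and 17.2 CPM in spleens (2.23, adjusted p = 9.33e-08).

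**Figure D5:**
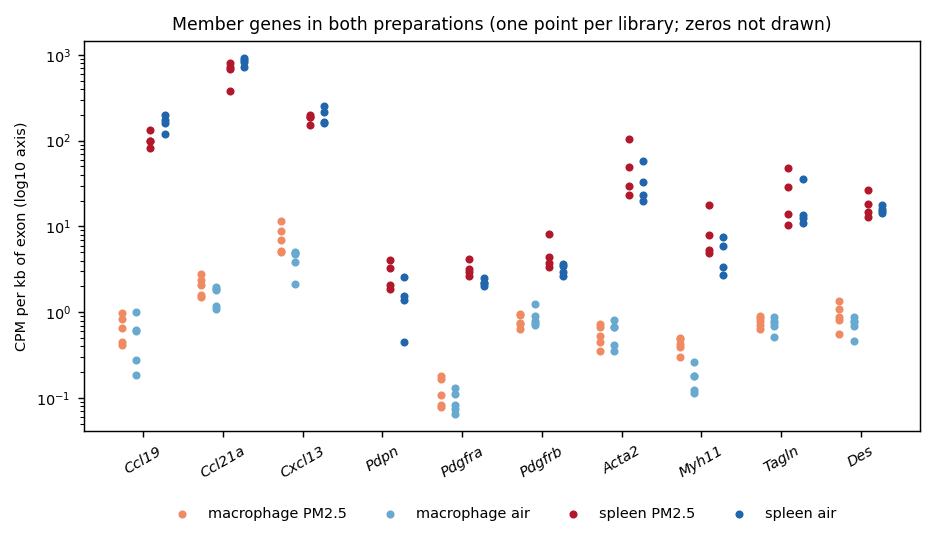
CPM per kilobase of exon on a log10 axis for each gene in the 4 groups, isolated macrophages left of whole spleen and PM2.5 left of air, 1 point per library, with values of 0 not drawn. Every macrophage point lies below every spleen point of the same gene, Pdgfrb shows the narrowest gap, and Pdpn has no macrophage point.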

How the data were processed

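The authors deposited a table of unnormalized counts, the number of reads assigned to each Ensembl gene in each of 18 libraries. Per the labels, the kits were Qiagen RNeasy for RNA and NEBNext Ultra II for libraries. The submitters' processing notes name FastQC 0.10.1, HTSeq 0.10.0 and the builds mm10 and GRCm38. No source used here gives the strand setting, the aligner or the release of the annotation. Symbols and coordinates are from GENCODE M21 (GRCm38), which matched 52081 of 55414 identifiers. The 3333 others carried 0.343% of counts.

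Libraries were grouped by title. No library was a copy of another of its group (lowest chi-square per degree of freedom 12.3). That replicates are separate animals is taken from the words bio rep in the titles, and nothing else states it, so p-values measure the spread between these libraries.

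Each experiment was fitted alone with edgeR 4.0.16 in R 4.3.3 (filterByExpr with a minimum count of 10 and minimum total of 15, TMM scaling, quasi-likelihood test, 2-sided, Benjamini-Hochberg over all genes tested, threshold 0.05). The difference between effects and the comparison of air groups came from 1 fit of 18 libraries. Fold changes are log2, PM2.5 over air or macrophage over spleen, with the standard error of the fit. Steps were checked on simulated counts. All 10 members are described in each comparison. Of other lists, genes past the threshold in any comparison, otherwise up to 3 with the smallest p in spleen, and the ligands, receptors and Srf and Myocd could be named.

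Alternatives were DESeq2 1.42.0 and its size factors, upper-quartile scaling, limma-voom (limma 3.58.1), no filter, a minimum of 1 CPM in all libraries of either group, the joint fit, a replicate block, PM2.5 macrophage replicate 1 counted as air, and the omission of libraries. Counts of list members without spleen libraries were added after the values were seen. The members and the gene lists were chosen with earlier results of these data known. Replicate numbers were not taken to pair the libraries, since the labels name no shared animal or day. Same-numbered libraries did not deviate together throughout. Their correlations were 0.284 and 0.254 for macrophage replicates 4 and 5 and between -0.143 and 0.0589 for the rest.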

Additional observations from a re-analysis of the deposited data

Results flagged for a closer look

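Tagln in air spleen replicate 1 stood apart from its group, at 79.1 CPM where the nearest of the other 3 air spleens had 30.8 CPM. The gap was 0.878 of the range of the group, above Dixon's critical value for 4 samples. Of 38 groups of values tested this was the 1 that passed, and chance alone passes about 1 group in 20. The same library had the highest air value for 8 of the 10 genes.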

How the results depend on the processing

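Against 2 genes in the spleen comparison, DESeq2's size factors gave 1, limma-voom 1, the filter of at least 1 CPM 12, no filter 461, DESeq2 830 and the joint fit 1050. It was 0 without air replicates 3 and 4 and without PM2.5 replicates 2 and 4, and between 0 and 219 when each library was left out in turn (219 without air replicate 2, 136 without PM2.5 replicate 1). Against 0 members, no filter called 1 (Ccl19, adjusted p = 0.0496) and DESeq2 2 (Ccl19, -0.66 with an adjusted p of 0.0258, and Pdgfra, 0.55 with 0.0415). In macrophages, against 0 genes, no filter called 1 and DESeq2 175, with between 0 and 17 when each library was left out (17 without air replicate 4), and against 0 members DESeq2 called 1, Myh11. For the difference between effects, against 259 genes, DESeq2 gave 1044, limma-voom 3, PM2.5 macrophage replicate 1 counted as air 87, and omissions between 68 and 1317. The 10 members called between preparations stayed called under every alternative run.

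Signs turned for the following values. In spleen, Tagln was -0.048 and Des -0.043 without PM2.5 replicate 4. In macrophages, Pdgfrb was 0.027 without air replicate 2, Tagln -0.00032 without air replicate 4, and Acta2 0.059 without air replicate 5, 0.028 without PM2.5 replicate 1, 0.0045 without PM2.5 replicate 5 and 0.12 with PM2.5 replicate 1 counted as air. For the difference, Tagln was 0.14 without PM2.5 spleen replicate 4, and with PM2.5 macrophage replicate 1 counted as air Pdgfra was 0.0044, Myh11 -0.027 and Des -0.17. Over single omissions these ranges were -0.048 to 0.9996 for Tagln and -0.043 to 0.34 for Des in spleen, -0.20 to 0.027 for Pdgfrb, -0.20 to 0.059 for Acta2 and -0.00032 to 0.16 for Tagln in macrophages, and -0.92 to 0.14 for the Tagln difference. The cause was not tested.

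With a replicate block, 3 genes and 0 members were called in spleen and 0 of both in macrophages, and no call of a member changed. Correlations of same-numbered libraries lay between -0.137 and 0.0589 in spleen and between -0.143 and 0.284 in macrophages. The labels state no pairing, and the numbers were not taken to pair libraries. Low counts limit what can be said of Pdpn, at 0 counts in macrophages, and of the macrophage values of other members. A macrophage library held at most 19 counts of Ccl19, 44 of Pdgfra, 47 of Tagln, 50 of Acta2, 74 of Ccl21a and 84 of Myh11.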
